A study of Mus musculus with 40 samples.

Results

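The response of the neonatal mouse brain to lipopolysaccharide (LPS, the outer wall component of Gram-negative bacteria) was measured 6 h after the injection, on 5 arrays of LPS-treated pups and 5 arrays of Vehicle-treated pups out of 40 arrays in all. All 40 arrays carried brain RNA of C57/Bl6 mice at postnatal day 9. Vehicle pups were given vehicle 10 h, and LPS pups LPS 6 h, ahead of brain removal. The effect of LPS therefore cannot be told apart from that of the time since the last injection named in the labels. The labels of the LPS group name no vehicle injection ahead of the LPS, while another pair of groups is used below for comparison: IDR, given the peptide IDR-1018 (an immunomodulatory innate defence regulator peptide) 10 h before removal, and LPS with IDR, given the peptide 4 h before LPS and 10 h before removal. In the remaining 20 arrays, LPS was followed after 14 h by hypoxia-ischaemia (HI) and each hemisphere was taken 6 h later, with vehicle or peptide 4 h ahead of LPS. Whether every array stands for a pup of its own is not in the labels, nor are the dose and route of LPS, and p-values measure the spread between these samples, which may be partly technical. Each value is a log2 signal of a probe set after robust multi-array averaging (RMA). Probe sets with a single gene symbol were used, and for a gene with several the one with the highest mean over the 40 arrays was taken, which left 19937 genes.

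LPS is held by Lbp and Cd14 and recognised by Tlr4 with its partner Ly96. The receptor signals through Myd88 to NF-kB, which drives the genes of inflammatory cytokines, and through Ticam1 (TRIF) to Irf3, which drives interferon beta. Secreted interferon acts through its receptors, Janus kinases, the Stat proteins and Irf9 on genes that hold an interferon-stimulated response element in their promoters. In the brain, the cells known to carry Tlr4 are mainly microglia, border macrophages and vessel cells, and blood-borne cytokines, interferons and adrenal glucocorticoids reach the other cells in the hours after a systemic dose.

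Between LPS and Vehicle 166 of the 19937 genes differed at an adjusted p under 0.05, which is 0.833% of the genes tested. The test was limma with Benjamini-Hochberg adjustment over all genes. Genes past this threshold are termed called. Of them, 146 were higher with LPS (0.732% of all genes) and 20 were lower (0.100%). The response was thus mostly one of genes that rose, and 34 of the called genes rose more than 2-fold while none fell as far. An unadjusted p under 0.05 was reached by 1240 genes (6.22%), 559 of them higher (2.80%) and 681 lower (3.42%). The median log2 fold change of all genes was -0.02, and the median half-width of its 95% confidence interval was 0.16. All 5 LPS arrays lay on one side of all 5 Vehicle arrays for 399 genes, 2.00% of those tested, of which 238 were higher and 161 lower. Among the called genes this held for 145 of the 146 that rose and 17 of the 20 that fell. The exceptions, named after their values were seen, were Scrg1 among the risen genes and Aplnr, Hmcn1 and Tnc among the fallen. The Scrg1 call was lost in 8 of the 10 fits without 1 array (adjusted p up to 0.115).

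The 10 arrays resembled each other closely, with correlations between 0.9908 and 0.9972 over all genes. Markers of neurons and glia of the labelled tissue were high on every array: Snap25, a synaptic protein, was measured at 12.5 to 12.9 and Slc1a3, the astrocyte glutamate transporter, at 11.3 to 11.7. The mean level of 57 ribosomal protein genes was 0.058 higher with LPS on the log2 scale, which the spread between arrays covers (exact two-sided permutation test, p = 0.357). The groups were not matched for sex. Xist, the RNA that silences one X chromosome in females, was measured at 11.8 to 12.2 on all 5 LPS arrays, and on the Vehicle arrays at 12.06, 12.12, 5.59, 5.01 and 5.41. The Y-linked gene Uty was at 4.53 or less on the LPS arrays and Vehicle arrays 1 and 2, and at 8.93 to 9.18 on Vehicle arrays 3, 4 and 5. Called genes on the X or Y chromosome were Tsc22d3 among the risen genes and Gpr34 among the fallen, and the call of Tsc22d3 was lost in 7 of the 10 fits without 1 array (adjusted p up to 0.0997). With the Xist level as a covariate 86 genes were called, 83 of them among the 166. These 83 were 81 of the genes that rose and 2 of the genes that fell, Cd180 and Hmcn1. Calls lost with that covariate included those of Cxcl10 (1.46, adjusted p = 0.214 by limma), Il1a (0.93, adjusted p = 0.0616), Saa3 (0.85, adjusted p = 0.245) and Ccl12 (0.78, adjusted p = 0.106). Of the other risen genes named here, Agt, B2m, C1qa, C5ar1, Casp12, Ccl19, Dhx58, Eif2ak2, Fcgr1, Fgfr3, Hif3a, Icam1, Ier3, Ifitm1, Il4ra, Lbp, Lrg1, Lyve1, Psmb8, Psmb9, Rsad2, Scrg1, Slc39a12, Steap4, Tsc22d3 and Zbtb16 were not called with it either. The median log2 fold change of the 65 risen genes that lost their call was 0.44 without the covariate and 0.43 with it, and that of the 18 fallen genes was -0.42 and -0.40. With only the 7 Xist-high arrays, 5 against 2, 75 genes were called, 72 higher and 3 lower. All 166 genes kept their sign in both fits, but the 2 fits are not separate checks, since every LPS array was Xist-high. In the fit of 7 arrays the sign was fixed beforehand for genes whose groups do not overlap, 145 risen and 17 fallen.

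**Figure D1:**
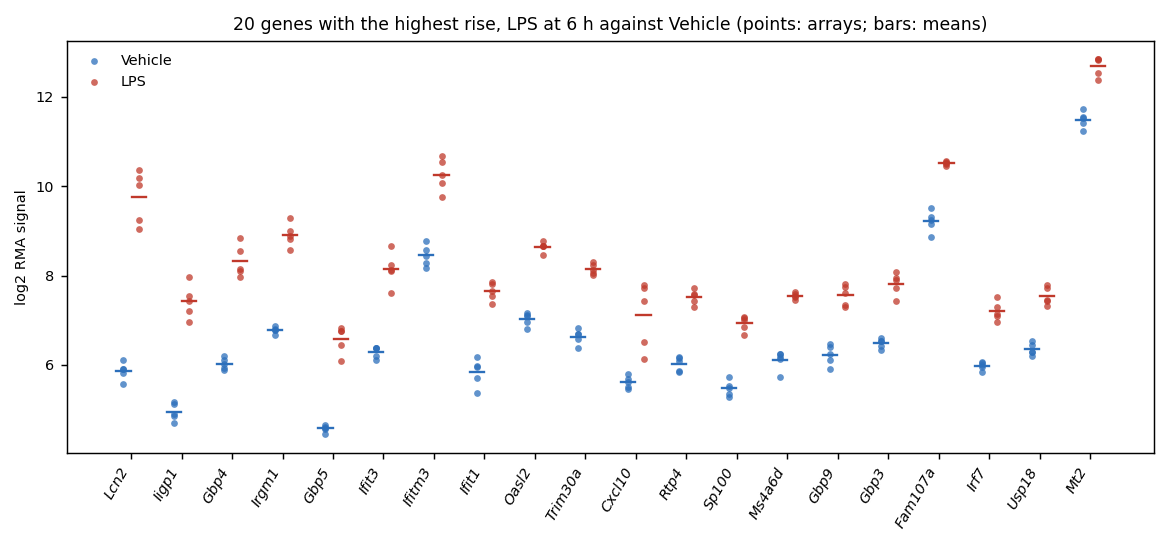
Log2 RMA signal (vertical axis) of the 20 named genes with the highest log2 fold change, with 1 point per array and a bar at the mean of the 5 Vehicle arrays (blue) and of the 5 LPS arrays (red). The points of the 2 groups do not overlap in any of the 20 genes, and the LPS arrays spread most in Cxcl10, from 6.14 to 7.79.

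Of the called genes Lcn2 rose most. It encodes lipocalin 2, a secreted protein that binds bacterial iron carriers and is a classic acute phase product of endothelium, astrocytes and neutrophils. Vehicle arrays 1 to 5 read 6.12, 5.83, 5.57, 5.90 and 5.92, and LPS arrays 1 to 5 read 10.17, 10.03, 9.04, 9.23 and 10.36. The lowest LPS array was thus far above the highest Vehicle array. The log2 fold change was 3.90 ± 0.22 (standard error, n = 5 each; adjusted p = 6.96e-07), a 14.9-fold rise. Lcn2 leads 4 of the lists described here, so its value recurs among acute phase, iron, reactive astrocyte and neutrophil genes.

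Interferon-inducible guanosine triphosphatases followed Lcn2. These guanylate-binding proteins (GBP) and immunity-related GTPases (IRG) attack the membranes of vacuoles that hold intracellular microbes. Of 14 measured members 8 rose and none fell, and their median log2 fold change was 1.18, against -0.02 over all genes. Iigp1 was at 4.90, 5.18, 4.71, 5.12 and 4.86 in Vehicle and at 7.54, 7.96, 6.97, 7.42 and 7.21 with LPS, a rise of 2.47 ± 0.15. Irgm1, a regulator of the other IRG proteins, was at 6.66, 6.87, 6.79, 6.78 and 6.81 in Vehicle and at 8.88, 9.29, 8.58, 9.00 and 8.81 with LPS. It rose by 2.13 ± 0.11 with an adjusted p of 2.39e-07, with no overlap between the groups. Gbp4 rose by 2.28 ± 0.14 and Gbp5, which also promotes inflammasome assembly, by 2.00 ± 0.12, from 4.46 to 4.66 in Vehicle to 6.09 to 6.82 with LPS. Gbp9 rose by 1.34 ± 0.12 and Gbp3 by 1.33 ± 0.11. Array 3 was the lowest LPS array in Iigp1, Gbp4, Irgm1, Gbp5, Gbp9 and Gbp3 alike. The 6 members that were not called were mostly positive in sign (5 of 6), with Gbp11 at 0.64 ± 0.14 (adjusted p = 0.0606) and Gbp8 at 0.34 ± 0.08 (adjusted p = 0.0785). Gbp11 passed the threshold without LPS array 3 or without Vehicle array 2, and Gbp8 without Vehicle array 4, the lowest adjusted p being 0.0387 and 0.0338. GBP, IRG and several families below hold close paralogs, and how far their probe sets hybridise to each other was not tested.

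The promoters of 2 called genes from the GTPases, the antiviral effectors, the acute phase genes, the glucocorticoid-responsive genes and the metallothioneins, those of highest log2 fold change that the RefSeq promoter table for GRCm38.p6 holds, were searched for the response element that belongs to each group. Genes on a chromosome set aside by rule were passed over, and neither Iigp1 nor Gbp4, the GTPases that rose most, was searched. For GTPases and antiviral genes the element is the interferon-stimulated response element, GAAANNGAA on either strand. Those that held a match in the 250 bases before the start of the gene are shown with the match in capitals, since these groups held 8 calls of 14 and 29 of 63, all higher.
Irgm1 (chr11:48871421-48871670, minus strand): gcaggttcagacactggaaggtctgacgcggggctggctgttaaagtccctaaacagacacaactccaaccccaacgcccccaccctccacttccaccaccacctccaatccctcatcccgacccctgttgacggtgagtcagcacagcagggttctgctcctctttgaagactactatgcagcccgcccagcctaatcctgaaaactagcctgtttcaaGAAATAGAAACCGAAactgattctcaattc
Gbp5 (chr3:142496684-142496933, plus strand): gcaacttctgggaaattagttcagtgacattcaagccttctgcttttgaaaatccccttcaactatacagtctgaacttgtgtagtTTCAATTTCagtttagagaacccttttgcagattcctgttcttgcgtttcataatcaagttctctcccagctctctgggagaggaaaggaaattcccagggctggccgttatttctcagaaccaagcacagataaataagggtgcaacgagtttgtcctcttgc
Ifit3 (chr19:34583279-34583528, plus strand): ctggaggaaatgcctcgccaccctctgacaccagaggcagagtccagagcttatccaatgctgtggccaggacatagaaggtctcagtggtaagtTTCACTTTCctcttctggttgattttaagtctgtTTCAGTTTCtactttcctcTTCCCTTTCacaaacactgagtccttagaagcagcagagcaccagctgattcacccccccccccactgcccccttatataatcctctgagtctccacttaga

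The Irgm1 promoter holds 2 overlapping matches, 30 and 24 bases before the start. That of Gbp5 holds 1 match, 164 bases before the start and read on the opposite strand. Ifit3, an antiviral gene described next, holds 3 on the opposite strand, at 155, 121 and 102 bases before the start. No match was present in the window of Ifitm3. Over all 27025 promoters of the table, 7.16% hold the element, and 30 of the 119 genes that rose and have an entry there hold it (25.2%), against 1 of the 13 matched genes that fell. The gamma-activated site TTCNNNGAA, bound by Stat dimers, was present in 7.14% of all promoters and in 15 of the 119 (12.6%). The kappaB site GGGANNNNCC was present in 17.4% of all promoters and in 35 of the 119 (29.4%). Over the promoters of the 15613 tested genes that have an entry, the shares of these 3 elements were 6.89%, 6.66% and 20%. These shares are descriptions and a match is not evidence that a factor binds there.

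Antiviral effectors, the largest list, also held the most risen genes. Of 63 measured members 29 rose and none fell, against 0.732% of all genes higher, and their median log2 fold change was 0.38. The GTPases, with 8 of 14, held a larger share. Ifit3 and Ifit1 sequester foreign RNA. Ifit3 was at 6.37, 6.38, 6.38, 6.21 and 6.10 in Vehicle and at 8.67, 8.24, 7.61, 8.12 and 8.11 with LPS, a rise of 1.87 ± 0.15. Ifit1 rose by 1.81 ± 0.14. Ifitm3, a membrane protein that blocks virus entry, was at 8.29, 8.17, 8.78, 8.43 and 8.57 in Vehicle and at 10.54, 10.25, 9.76, 10.06 and 10.68 with LPS, a 3.51-fold rise. Oasl2, a relative of the oligoadenylate synthetases, rose by 1.61 ± 0.08, from 6.81 to 7.16 in Vehicle to 8.45 to 8.78 with LPS. Trim30a rose by 1.51 ± 0.08, the transmembrane-receptor chaperone Rtp4 by 1.50 ± 0.09, and the nuclear body protein Sp100 by 1.46 ± 0.10. In each of these 7 genes the 2 groups did not overlap.

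The remaining called members of the antiviral list, named after their values were seen, rose by 1.19 to 0.37. They included the cytosolic RNA sensors Ddx58 (RIG-I) at 0.79, Ifih1 (MDA5) at 0.58 and Dhx58 (LGP2) at 0.59, the double-stranded RNA kinase Eif2ak2 at 0.37, and Rsad2 (viperin) at 0.77 ± 0.13. Among PARP genes Parp14, Parp12 and Parp9 rose, 3 of 11 measured, and among Schlafen genes Slfn5 and Slfn2, 2 of 9. Of 5 measured IFIT genes only Ifit1 and Ifit3 were called, and of 7 IFITM genes Ifitm3 and Ifitm1. The calls of Eif2ak2 and Ifitm1 were lost in 7 and 8 of the 10 fits that left out 1 array (adjusted p up to 0.0849 and 0.0978). Uncalled members included Samhd1, which depletes nucleotides, at 0.34 ± 0.07 (adjusted p = 0.0614) and the tetherin gene Bst2 at 0.38 ± 0.12 (adjusted p = 0.316). In the PYHIN (Ifi200) family of nucleic acid sensors 1 of 10 members rose, Ifi207 by 1.10 ± 0.13, and the family median was 0.32.

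The interferon genes and their receptors did not show this. None of 13 measured ligands and receptors was called by limma, none had an unadjusted p under 0.05, and their median was -0.01. The interferon beta gene Ifnb1 was at 5.14, 5.15, 5.04, 4.96 and 5.09 in Vehicle and at 5.17, 5.00, 5.11, 4.73 and 5.22 with LPS. Its log2 difference was -0.03 ± 0.09, and the groups overlapped throughout. All these readings lay below the array medians of 6.99 to 7.13. With samples at 6 h only, they do not show that Ifnb1 stayed level earlier. Ifng, the gene of interferon gamma, differed by 0.07 ± 0.07, and the receptor chains Ifnar1 and Ifngr1 by -0.09 ± 0.07 and 0.05 ± 0.06. Among 22 kinases, Stats, interferon regulatory factors and feedback genes, 3 rose. Irf7, the factor that amplifies interferon synthesis, was at 6.06, 6.00, 6.04, 5.95 and 5.84 in Vehicle and at 7.51, 7.15, 6.95, 7.29 and 7.10 with LPS, a rise of 1.22 ± 0.09. Irf9, which joins the Stats on the response element, rose by 0.47 ± 0.06, and Usp18, which removes the Isg15 tag and restrains the receptor, by 1.19 ± 0.10. Irf1 stood at 0.03 ± 0.09, Irf8 at 0.27 ± 0.09 (adjusted p = 0.372) and Stat2 at 0.18 ± 0.06 (adjusted p = 0.458), none of them called.

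Genes for loading peptides onto major histocompatibility complex class I rose in 5 of 22 cases, and the median of that list was 0.16. Tap1, the peptide pump, was at 6.66 to 6.80 in Vehicle and 7.34 to 7.91 with LPS, a rise of 0.79 ± 0.09. H2-Q4 rose by 0.61 ± 0.07, the immunoproteasome subunits Psmb8 and Psmb9 by 0.43 ± 0.08 and 0.41 ± 0.08, and the light chain B2m by 0.42 ± 0.08. The calls of Psmb9 and B2m were lost in 5 and 7 of the 10 fits without 1 array, with adjusted p up to 0.0796 and 0.0793.

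**Figure D2:**
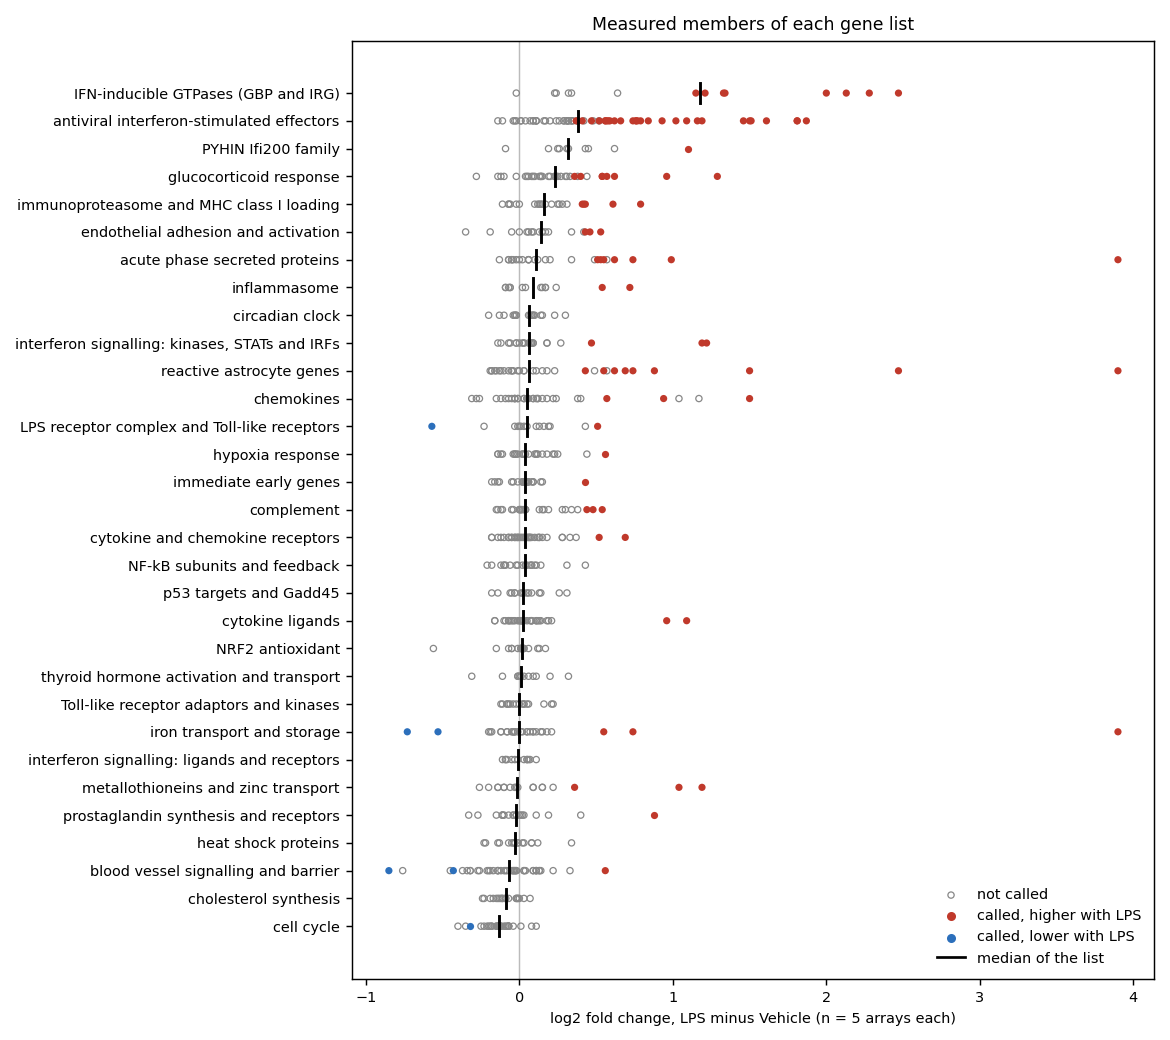
Log2 fold change, LPS minus Vehicle (horizontal axis, n = 5 arrays each), of the measured members of 31 gene lists, ordered by the list median (black bar). Filled points are called genes, red where higher and blue where lower with LPS. The GTPases have the highest median, 1.18, and the cell cycle genes the lowest, -0.13, while cytokine ligands, NF-kB genes and Toll-like receptor adaptors centre near 0.

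At the receptor end of the pathway few genes differed. Of 15 genes of the LPS receptor complex and the Toll-like receptors, Lbp rose and Cd180 fell. Lbp, the plasma protein that hands LPS to Cd14, was at 8.23, 8.27, 8.07, 8.16 and 7.98 in Vehicle and at 8.47, 8.64, 8.74, 8.74 and 8.67 with LPS, a rise of 0.51 ± 0.07. Cd180, a receptor related to Tlr4 that tempers the response to LPS in myeloid cells, was at 8.27, 8.08, 8.14, 7.94 and 7.94 in Vehicle and at 7.26, 7.48, 7.71, 7.69 and 7.38 with LPS. It fell by 0.57 on the log2 scale (standard error 0.10, adjusted p = 0.00774), and it was 1 of the 2 fallen genes called with the Xist covariate, where it was at -0.67 (adjusted p = 0.032). Tlr4 itself was at 5.25 in both groups (SD 0.05 in Vehicle and 0.14 with LPS), with a 95% interval of the difference from -0.15 to 0.16. Cd14 differed by -0.01 ± 0.11 and Ly96 by -0.23 ± 0.25, the latter with 1 Vehicle array at 7.66 and the others at 6.13 to 6.46. Among 17 adaptors and kinases below the receptors, including Myd88 (0.16 ± 0.09) and Ticam1 (0.06 ± 0.07), limma called none. Of the 17, 2 had an unadjusted p under 0.05 in limma, against 6.22% of all genes.

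NF-kB subunits and the feedback genes that NF-kB induces held no call among 21 genes measured, and their median was 0.04. Limma gave 4 of the 21 an unadjusted p under 0.05, 3 of them higher, against 6.22% of all genes. Nfkbia, the inhibitor that NF-kB resupplies, was at 8.52 to 8.80 in Vehicle and 8.80 to 9.22 with LPS, a difference of 0.31 ± 0.08 that did not pass (adjusted p = 0.194). Tnfaip3 (A20) was at 0.08 ± 0.05 and Rela at -0.10 ± 0.07.

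Of 32 cytokine ligands 2 rose. Il1a, the interleukin 1 alpha gene, was at 5.27, 5.29, 5.27, 5.32 and 5.10 in Vehicle and at 6.50, 6.15, 5.61, 6.33 and 6.46 with LPS, a rise of 0.96 ± 0.14. Tnfsf10, the death ligand TRAIL and itself interferon-inducible, rose by 1.09 ± 0.10. The cytokines best known from LPS responses were not called: Tnf differed by 0.19 ± 0.09, Il1b by 0.11 ± 0.13 and Il6 by 0.02 ± 0.07, the last at 2.95 to 3.28 in Vehicle and 3.07 to 3.24 with LPS, near the low end of the array's range of 1.84 to 14.0. No change in these 3 genes was called at this sampling time and array sensitivity, which does not show that they stayed level earlier.

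Chemokines rose in 3 of 35 cases. Cxcl10, which draws T cells and is induced by both interferons, was at 5.69, 5.63, 5.51, 5.79 and 5.47 in Vehicle and at 7.79, 7.72, 6.14, 6.51 and 7.44 with LPS. Its rise of 1.50 ± 0.27 (adjusted p = 0.0126) had the widest error among the 20 leading genes, since LPS arrays 3 and 4 lay below the other 3 LPS arrays. Its neighbours in function Cxcl9 and Cxcl11 had similar differences, 1.17 ± 0.27 and 1.04 ± 0.25, and did not pass (adjusted p = 0.0794 and 0.0981) although their groups did not overlap. Without LPS array 3 the adjusted p of Cxcl9 was 0.00601, and without LPS array 1 that of Cxcl11 was 0.00156. Ccl12, a monocyte attractant, rose by 0.94 ± 0.14. Ccl19, which guides lymphocytes and dendritic cells, rose by 0.57 ± 0.12, a call lost in 8 of the 10 fits without 1 array (adjusted p up to 0.115). Ccl19 has 3 further probe sets, whose differences ran from -0.33 to 0.58. Ccl2 was at 0.22 ± 0.12 and Ccl5 at 0.40 ± 0.09 (adjusted p = 0.0727), neither called. Among 37 cytokine and chemokine receptors Osmr, the oncostatin M receptor of astrocytes and endothelium, rose by 0.69 ± 0.06, from 7.50 to 7.73 in Vehicle to 8.19 to 8.42 with LPS, and Il4ra by 0.52 ± 0.09.

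Inflammasome genes rose in 2 of 14 cases. Casp4, the caspase that senses LPS inside the cell, was at 5.04, 5.40, 5.21, 5.00 and 5.12 in Vehicle and at 5.86, 5.85, 5.76, 5.76 and 6.16 with LPS, a rise of 0.72 ± 0.09. Casp12 rose by 0.54 ± 0.10, while Casp1 and Nlrp3 were at -0.06 ± 0.11 and -0.09 ± 0.06. Prostaglandin genes held 1 call among 21: Ptgs2 (cyclooxygenase 2), the enzyme behind fever, was at 7.12, 7.15, 7.27, 6.88 and 7.26 in Vehicle and at 7.78, 8.17, 7.79, 7.96 and 8.38 with LPS. It rose by 0.88 ± 0.11, and it was also called with the Xist covariate (adjusted p = 0.0298). Ptges, the terminal prostaglandin E synthase, was at -0.11 ± 0.06.

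Acute phase secreted proteins rose in 7 of 26 cases, with a median of 0.11. Behind Lcn2 came Saa3, the serum amyloid A form made outside the liver, at 5.69, 5.91, 5.67, 5.37 and 5.67 in Vehicle and 7.38, 6.41, 6.35, 6.49 and 6.62 with LPS. Its rise of 0.99 ± 0.17 rested in part on LPS array 1, which stood above the other 4. Agt (angiotensinogen) rose by 0.62 ± 0.09, ceruloplasmin, Cp, by 0.55 ± 0.08 and Lrg1 by 0.53 ± 0.10. The Lrg1 call was lost in 5 of the 10 fits without 1 array (adjusted p up to 0.0735). Serpina3n, a protease inhibitor often used to mark reactive astrocytes, was at 0.57 ± 0.14 and not called (adjusted p = 0.0956), with Vehicle array 5 at 9.56 inside the LPS range of 9.40 to 9.88. Without that array its adjusted p was 0.00315. In the promoter windows of Lcn2 and Saa3 the kappaB site was absent.

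Iron genes moved in both directions, 3 up and 2 down of 30 measured, with a median of 0.00. Beside Lcn2 and Cp, an iron oxidase, the metalloreductase Steap4 rose by 0.74 ± 0.11. Slc40a1, which encodes ferroportin, the exporter through which cells release iron, was at 8.36, 8.17, 8.53, 8.26 and 8.36 in Vehicle and at 7.30, 7.62, 7.79, 7.80 and 7.53 with LPS. It fell by 0.73 on the log2 scale (standard error 0.10, adjusted p = 0.00123), a 1.66-fold decrease, with no overlap between the groups. Tfrc, the transferrin receptor for iron uptake, was at 9.82, 9.75, 9.74, 9.88 and 9.43 in Vehicle and at 8.98, 9.30, 9.40, 9.37 and 8.89 with LPS, and fell by 0.53 (standard error 0.11). The Tfrc call was lost in 7 of the 10 fits without 1 array (adjusted p up to 0.137). The hepcidin gene Hamp, whose product removes ferroportin protein, was low and differed by 0.11 ± 0.13, and the ferritin chain Fth1 by 0.05 ± 0.05.

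Myeloid genes were mixed. Microglial markers numbered 27, of which 3 rose and 1 fell, with a median of 0.10. Their array means were 8.23 to 8.43 with LPS and 8.12 to 8.35 in Vehicle. Limma gave 12 of the 27 an unadjusted p under 0.05, 9 of them higher, against 6.22% of all genes. Mertk, a receptor for dying cells, was at 8.44, 8.33, 8.52, 8.29 and 8.51 in Vehicle and at 9.11, 9.32, 9.31, 9.25 and 9.09 with LPS, a rise of 0.80 ± 0.07. C1qb and C1qa, chains of the first complement component, rose by 0.48 ± 0.08 and 0.44 ± 0.09, and the third chain C1qc stood at 0.38 ± 0.11 without passing (adjusted p = 0.238). The 5 LPS arrays of C1qb lay between 10.12 and 10.16, much closer together than the Vehicle arrays at 9.48 to 9.93. The C1qa call was lost in 6 of the 10 fits without 1 array (adjusted p up to 0.101), and C1qc passed without Vehicle array 3 (adjusted p = 0.034). Gpr34, a lysophosphatidylserine receptor of microglia, fell by 0.52 (standard error 0.10), from 5.64 to 6.02 in Vehicle to 5.04 to 5.46 with LPS. Its call was lost in 5 of the 10 fits without 1 array (adjusted p up to 0.0796), and with the Xist covariate it was at -0.39 (adjusted p = 0.54). The homeostatic markers P2ry12, Tmem119 and Cx3cr1 were at -0.29 ± 0.12, 0.02 ± 0.10 and 0.10 ± 0.07, none called. In RNA of whole brain tissue, a change in the number of cells of one type and a change of RNA per cell cannot be told apart.

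Complement genes as a list had 3 calls of 26, the third being C5ar1, the receptor of the C5a fragment, which rose by 0.54 ± 0.10. That call was lost in 7 of the 10 fits without 1 array (adjusted p up to 0.0722). C4b was at 0.28 ± 0.07 (adjusted p = 0.121). Families outside the lists were looked at after their values were seen. All 4 measured receptors for immunoglobulin G rose: Fcgr4 by 0.66 ± 0.09, Fcgr3 by 0.62 ± 0.09, Fcgr2b, the inhibitory one, by 0.53 ± 0.07, and Fcgr1 by 0.41 ± 0.06. Fcgr3 was at 7.64, 7.63, 7.94, 7.71 and 7.79 in Vehicle and at 8.18, 8.22, 8.41, 8.41 and 8.59 with LPS. Of 19 measured MS4A genes, membrane proteins largely of myeloid and lymphoid cells, 4 rose. Ms4a6d was at 6.25, 6.18, 6.25, 6.13 and 5.72 in Vehicle and at 7.63, 7.51, 7.45, 7.58 and 7.54 with LPS, a rise of 1.44 ± 0.09. Ms4a6c rose by 0.98 ± 0.06 and Ms4a4a by 0.73 ± 0.09. Ms4a6b rose by 0.39 ± 0.08, a call lost in 8 of the 10 fits without 1 array (adjusted p up to 0.108).

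Markers of blood cells and of border macrophages held few calls. Of 17 neutrophil markers Lcn2 alone was called. The other 16 had a median of 0.02 and array means of 5.19 to 5.37 with LPS and 5.11 to 5.38 in Vehicle. Limma gave 1 of them an unadjusted p under 0.05, against 6.22% of all genes. S100a8 was at 4.58 to 5.21 in Vehicle and 4.94 to 5.26 with LPS, a difference of 0.23 ± 0.11, and S100a9 differed by 0.06 ± 0.06. Among 11 monocyte markers Ms4a6c alone rose. Ccr2, the receptor that defines inflammatory monocytes, was at -0.05 ± 0.10, with LPS arrays at 3.65 to 4.11. Those readings lie near the low end of the array's range of 1.84 to 14.0. Whether blood cells entered the tissue was not tested. None of 17 lymphocyte markers was called by limma, with 1 at an unadjusted p under 0.05, against 6.22% of all genes. Among 11 markers of border macrophages Lyve1 alone was called, with a rise of 0.57 ± 0.10, and their median was 0.07. Limma gave 5 of these 11 an unadjusted p under 0.05, 3 of them higher, against 6.22% of all genes.

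Reactive astrocyte genes rose in 9 of 32 cases, although the median of the list was 0.06. Its leading members Lcn2, Iigp1, Cxcl10, Ptgs2, Steap4 and Osmr also stand in other lists. The intermediate filament genes Gfap and Vim, the usual markers of astrocyte reaction, were at 0.23 ± 0.08 (adjusted p = 0.501) and -0.12 ± 0.10. Among 16 general astrocyte markers 2 rose. Gjb6 (connexin 30) was at 7.86 to 7.95 in Vehicle and at 8.16, 8.67, 8.72, 8.63 and 8.47 with LPS, a rise of 0.62 ± 0.09. Fgfr3 rose by 0.51 ± 0.09. Array means of the astrocyte markers were 10.55 to 10.67 with LPS and 10.49 to 10.54 in Vehicle.

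Glucocorticoid-responsive genes rose in 8 of 35 cases with none lower, and their median of 0.23 was above that of most lists. Limma gave 21 of the 35 an unadjusted p under 0.05, 20 of them higher, against 6.22% of all genes. Fam107a, an actin regulator induced by stress hormones, was at 9.24, 9.30, 9.15, 8.87 and 9.52 in Vehicle and at 10.53, 10.44, 10.55, 10.50 and 10.51 with LPS, a rise of 1.29 ± 0.09. Its LPS arrays lay closer together than its Vehicle arrays. Fkbp5, which dampens the glucocorticoid receptor, was at 8.29, 8.32, 8.32, 8.39 and 8.30 in Vehicle and at 8.96, 9.05, 8.89, 8.72 and 9.10 with LPS, a rise of 0.62 ± 0.07. Sult1a1 rose by 0.96 ± 0.11, Zbtb16 by 0.54 ± 0.08 and Hif3a by 0.54 ± 0.11. The Hif3a call was lost in 7 of the 10 fits without 1 array (adjusted p up to 0.139). Lyve1, given above, is in this list too. Targets of the receptor that were not called included Per1 at 0.23 ± 0.09 and Sgk1 at 0.05 ± 0.05. The receptor gene Nr3c1, at -0.28 ± 0.09, was not called either (adjusted p = 0.356). The response element ACANNNTGT was present in 5.88% of all promoters and in 4.98% of those of the tested genes. It was present in 9 of the 119 matched genes that rose (7.56%) and absent from the windows of Fam107a and Sult1a1. Fam107a has 3 starts in the promoter table, of which only the most upstream was searched.

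Metallothioneins bind zinc and copper and are induced by metals, glucocorticoids and inflammatory cytokines. Of 18 metallothionein and zinc transport genes 3 rose. Mt2 was at 11.42, 11.22, 11.72, 11.51 and 11.55 in Vehicle and at 12.81, 12.83, 12.53, 12.37 and 12.83 with LPS, a rise of 1.19 ± 0.11. Mt1 was at 9.92, 9.88, 10.34, 10.07 and 10.49 in Vehicle and at 11.41, 11.34, 10.84, 10.77 and 11.52 with LPS, a rise of 1.04 ± 0.16. In both genes LPS arrays 3 and 4 were the lowest of the group and still above every Vehicle array. The neuronal form Mt3 was at 0.22 ± 0.08 and not called (adjusted p = 0.581). Slc39a12, a zinc importer of astrocytes, rose by 0.36 ± 0.07, a call lost in 7 of the 10 fits without 1 array (adjusted p up to 0.12). Mt1 and Mt2 lie next to each other on chromosome 8, and their promoters are shown because both carry the metal response element, TGCACNC or TGCGCNC on either strand, in capitals.
Mt2 (chr8:94172368-94172617, plus strand): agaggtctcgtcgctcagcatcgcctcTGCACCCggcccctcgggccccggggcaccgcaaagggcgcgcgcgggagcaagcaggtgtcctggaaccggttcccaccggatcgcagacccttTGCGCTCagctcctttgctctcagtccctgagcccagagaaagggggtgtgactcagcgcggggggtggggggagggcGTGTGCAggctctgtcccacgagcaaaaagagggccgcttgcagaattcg
Mt1 (chr8:94178839-94179088, plus strand): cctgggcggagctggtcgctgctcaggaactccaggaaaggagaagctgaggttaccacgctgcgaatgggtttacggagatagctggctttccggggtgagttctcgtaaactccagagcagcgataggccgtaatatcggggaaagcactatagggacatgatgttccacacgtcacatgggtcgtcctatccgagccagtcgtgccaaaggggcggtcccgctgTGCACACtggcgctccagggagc

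Mt2 holds 3 matches, 223, 128 and 50 bases before the start, and Mt1 holds 1 match at 23. The element is common: 21.3% of all promoters of the table and 25.6% of those of the tested genes hold it, as do 21 of the 119 matched genes that rose (17.6%).

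Vessel genes were called in both directions. Among 42 genes of vessel signalling and the blood-brain barrier 1 rose and 2 fell, and the median was -0.07. At an unadjusted p under 0.05 limma gave 16 of the 42, 13 of them lower, against 3.42% of all genes lower at that level. Tek (Tie2), the angiopoietin receptor that keeps endothelium quiescent, was at 8.62, 8.59, 8.61, 8.57 and 8.30 in Vehicle and at 7.12, 7.72, 7.86, 8.11 and 7.64 with LPS. It fell by 0.85 on the log2 scale (standard error 0.14, adjusted p = 0.00783), the lowest value of any called gene, with LPS array 1 farthest down. Aplnr, the apelin receptor of sprouting endothelium, fell by 0.43 (standard error 0.08), a call lost in 7 of the 10 fits without 1 array (adjusted p up to 0.0937). Slc2a1, the glucose transporter Glut1 of the barrier, was at 10.23, 10.11, 10.19, 10.14 and 10.40 in Vehicle and at 10.84, 10.78, 10.65, 10.75 and 10.82 with LPS, a rise of 0.56 ± 0.07. Slc16a4 was at -0.76 ± 0.18 (adjusted p = 0.0848) and the growth factor receptor Kdr at -0.45 ± 0.11 (adjusted p = 0.138), both with groups that did not overlap. Slc16a4 passed without LPS array 3 or 4 and Kdr without LPS array 4, with lowest adjusted p of 0.0247 and 0.0243. The 16 endothelial markers as a whole held 1 call, Tek, with a median of -0.19. Of the 16, limma gave 9 an unadjusted p under 0.05, 8 of them lower, and their array means ran from 8.09 to 8.53 with LPS and from 8.47 to 8.61 in Vehicle. Pecam1 and Cldn5, markers of all brain endothelium, were at -0.02 ± 0.07 and -0.26 ± 0.12 (adjusted p = 0.986 and 0.78). The part of a shift in endothelial RNA in the values of Tek, Aplnr and Kdr was not tested. Of 18 genes of endothelial adhesion and activation, F3 (tissue factor) rose by 0.46 ± 0.06 and the leukocyte adhesion molecule Icam1 by 0.43 ± 0.07, beside Lrg1.

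**Figure D3:**
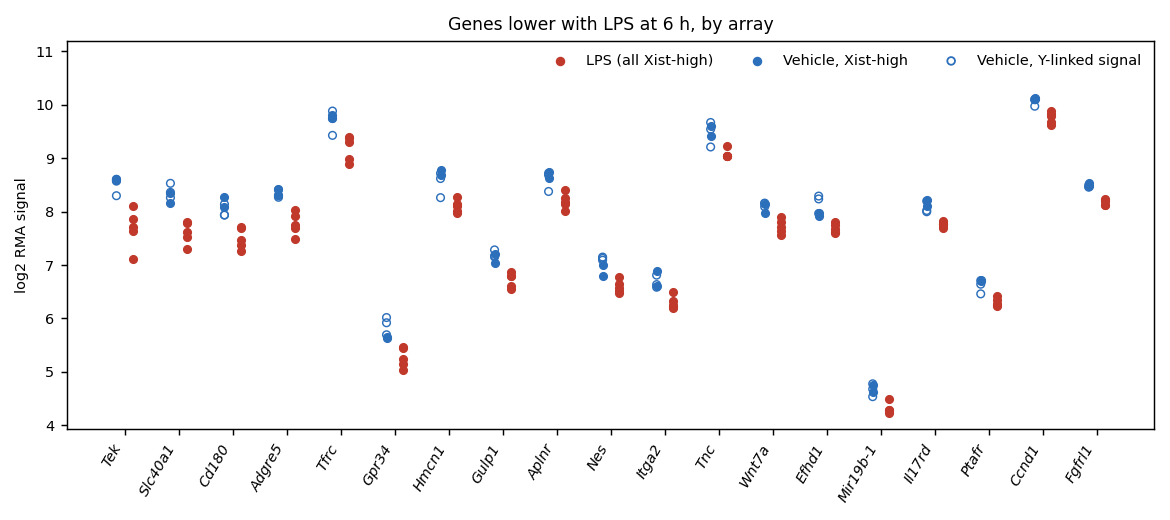
Log2 RMA signal (vertical axis) of 19 genes called lower with LPS, 1 point per array. LPS arrays are red, Vehicle arrays with high Xist filled blue and Vehicle arrays with Y-linked signal open blue. In all but Aplnr, Hmcn1 and Tnc the highest LPS array lies below the lowest Vehicle array.

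The genes that fell form no single list. After Tek and Slc40a1 came Adgre5 (CD97), an adhesion receptor of leukocytes, at 8.31, 8.43, 8.30, 8.41 and 8.27 in Vehicle and 7.48, 7.70, 7.92, 8.04 and 7.74 with LPS, a fall of 0.57 on the log2 scale (standard error 0.09, adjusted p = 0.0058). Gulp1, an adaptor for engulfing dead cells, fell by 0.44, Wnt7a, the ligand with which neural cells support brain vessels, by 0.39, and Il17rd and Fgfrl1, both inhibitors or decoys of fibroblast growth factor signalling, by 0.35 and 0.30. These 4 stayed called in all 10 fits that left out 1 array, as did Tek, Slc40a1, Cd180 and Adgre5. Calls of Nes (-0.43), the intermediate filament of neural progenitors, the collagen receptor Itga2 (-0.41), Efhd1 (-0.39), the microRNA gene Mir19b-1 (-0.36), Ptafr (-0.34), the receptor of platelet-activating factor, and Ccnd1 (-0.32), cyclin D1, were lost in 3, 5, 7, 7, 7 and 7 of these fits. Their adjusted p reached 0.0592, 0.0757, 0.133, 0.0762, 0.0791 and 0.107. Hmcn1 (-0.51) and Tnc (-0.41), both of the extracellular matrix, were called with overlapping groups and are named after their values were seen. Their calls were lost in 4 and 8 of the 10 fits without 1 array, with adjusted p up to 0.0593 and 0.108. Hmcn1 is measured by 77 probe sets, and the other 76 were all negative, from -0.58 to -0.01, with 15 of them past the threshold when all probe sets were tested. It was also the second fallen gene called with the Xist covariate, at -0.64 (adjusted p = 0.0293). With that covariate Tek was at -0.91 and Slc40a1 at -0.66, values close to those without it, but with adjusted p of 0.0861 and 0.0544.

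Lists tied to growth and stress held few calls. Of 33 cell cycle genes Ccnd1 alone was called, and their median of -0.13 was the lowest of the lists that are not markers. Of the 33, limma gave 8 an unadjusted p under 0.05, all of them lower, against 3.42% of all genes. Nes was the only call among 10 markers of neural progenitors, whose median was -0.14 and which were all negative. Limma gave 3 of these 10 an unadjusted p under 0.05, all lower, against 3.42% of all genes lower at that level. Slc2a1 was the only call among 25 hypoxia response genes. Limma gave 6 of the 25 an unadjusted p under 0.05, all higher, against 2.80% of all genes higher at that level. Ier3 was the only call among 26 immediate early genes, at 0.43 ± 0.07. Limma called none of 18 circadian, 13 thyroid hormone, 18 NRF2 antioxidant, 21 cholesterol synthesis, 17 heat shock and 16 p53 target genes. In these lists 4, 3, 1, 2, 3 and 2 genes had an unadjusted p under 0.05, against 6.22% of all genes. The cystine transporter Slc7a11 was the farthest of these, at -0.56 ± 0.12 (adjusted p = 0.0575), and passed without LPS array 3, LPS array 4 or Vehicle array 5, with a lowest adjusted p of 0.0274. Dio2, which activates thyroid hormone in glia, was at 0.32 ± 0.07 (adjusted p = 0.0747), and passed without LPS array 1 or Vehicle array 5, with a lowest adjusted p of 0.0198.

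Markers of other brain cells were not called by limma: none of 22 neuronal, 17 oligodendrocyte lineage, 8 striatal, 12 cerebellar, 11 pericyte, 10 choroid plexus and 14 meningeal markers, with 0, 3, 0, 1, 5, 1 and 4 of them at an unadjusted p under 0.05, against 6.22% of all genes. Of the 5 pericyte markers 4 were lower, as were all 4 of the meningeal markers. The oligodendrocyte markers had a median of 0.17 and 16 of 17 were positive, Mog at 0.38 ± 0.13 and Mbp at 0.21 ± 0.11, neither called (adjusted p = 0.439 and 0.884). The meningeal markers had a median of -0.16, with all 14 negative. Neuronal array means were 10.66 to 10.73 with LPS and 10.69 to 10.74 in Vehicle.

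Of the 166 called genes, 62 that rose and 12 that fell stood in none of the 46 lists. Some of them, chosen after their values were seen, had changes as large as those of listed genes. Scgb3a1, a secretoglobin, rose by 1.10 ± 0.09, and Rnf213, a large ubiquitin ligase, by 1.05 ± 0.07, with its second probe set at 1.31. Tgm2 (transglutaminase 2) was at 7.33, 7.37, 6.99, 7.34 and 7.14 in Vehicle and at 8.21, 8.17, 7.97, 8.15 and 8.17 with LPS, a rise of 0.90 ± 0.08. Pla2g3, a secreted phospholipase, rose by 0.86 ± 0.07, the lipid carrier Apod by 0.74 ± 0.10, the fatty acid receptor Gpr84 by 0.67 ± 0.10 and Mlkl, the effector of necroptosis, by 0.66 ± 0.07. Acer2, an alkaline ceramidase, rose by 1.03 ± 0.07, but its second probe set was at -0.08, so the 2 disagree.

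The strength of the response differed between the 5 LPS arrays. The mean of the 146 risen genes was 7.05 to 7.08 on the Vehicle arrays and 7.91, 7.90, 7.73, 7.83 and 7.89 on LPS arrays 1 to 5. Array 3 was the lowest of the 5 in 65 of these genes and the highest in 10, while array 1 was the highest in 48. The fallen genes followed another order, with means of 7.32, 7.44, 7.51, 7.55 and 7.40 on LPS arrays 1 to 5 against 7.83 to 7.97 in Vehicle. Array 1 was thus farthest from Vehicle in both sets. Without LPS array 3 the number of called genes was 167, and without array 1 it was 154.

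The same interval after LPS was also examined in pups that had received the peptide, as LPS with IDR against IDR alone, which uses 10 other arrays. In these, 294 genes were called (1.47% of all genes), 232 higher and 62 lower. Of the genes that rose with LPS alone 123 also rose here, 84.2% of that list and 53% of the other. Of those that fell 11 also fell, 55% and 17.7%. No gene was called in opposite directions. Lcn2 had a log2 fold change of 3.87 beside 3.90, Iigp1 2.49 beside 2.47, and Irgm1 2.13 in both. Ifit3 was at 2.49 beside 1.87 and Rsad2 at 1.52 beside 0.77, and Cxcl10 was at 0.93 and not called beside 1.50. Tfrc was at -0.09 beside -0.53 and Ccl19 at -0.03 beside 0.57.

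**Figure D4:**
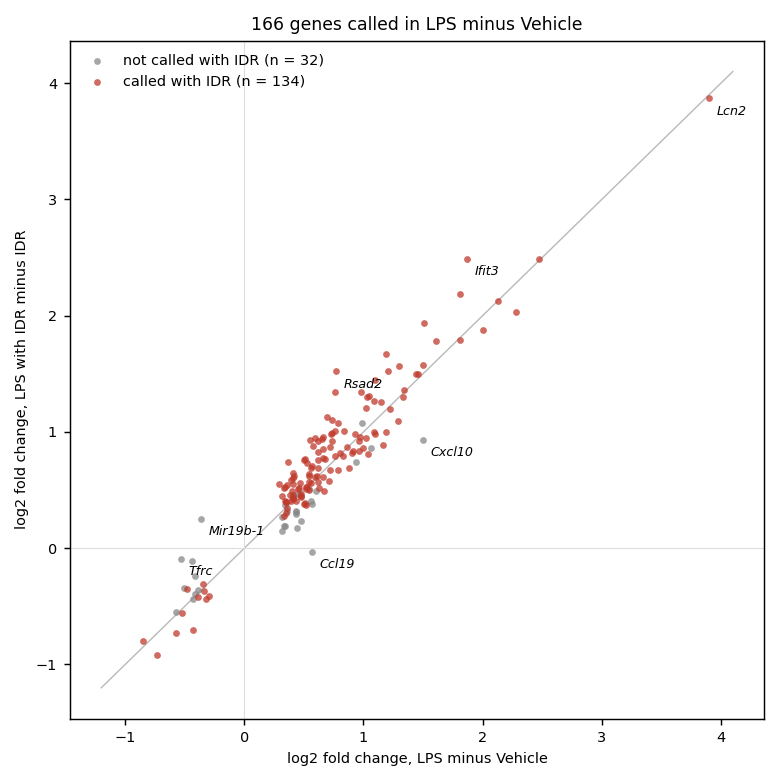
Log2 fold change of the 166 genes called in LPS minus Vehicle (horizontal axis) against their log2 fold change in LPS with IDR minus IDR (vertical axis), n = 5 arrays a group, with the line of equality in grey. Red points, 134 genes, were called with the peptide too and grey points, 32 genes, were not. Lcn2 lies on the line at 3.90 and 3.87, and Mir19b-1 (-0.36 and 0.25) and Ccl19 (0.57 and -0.03) have opposite signs in the 2 settings.

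The difference between the effect of LPS without and with the peptide was tested as an interaction over the 20 arrays. Limma called it for 1 gene (0.00502% of all genes), Tex24, which was not a called LPS gene, and for none of the 166. The Tex24 call was lost without Vehicle array 4, IDR array 1 or the first array of LPS with IDR. At an unadjusted p under 0.05, 873 of all genes and 20 of the 166 differed. For Lcn2 the difference of the 2 effects was 0.03, with a 95% interval from -0.62 to 0.68, and for Irgm1 the interval ran from -0.45 to 0.45. For Tfrc it was -0.44 (interval -0.73 to -0.15) and for Ccl19 0.60 (0.18 to 1.03), both with an adjusted p of 0.86. The median half-width of these intervals was 0.22, without adjustment for the number of genes tested. Differences larger than that also went uncalled, as in Tfrc and Ccl19, so the lack of calls does not show that the 2 settings were alike. The sexes were unequal here too, since 1 IDR array and 2 arrays of the group with both agents had high Xist.

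**Figure D5:**
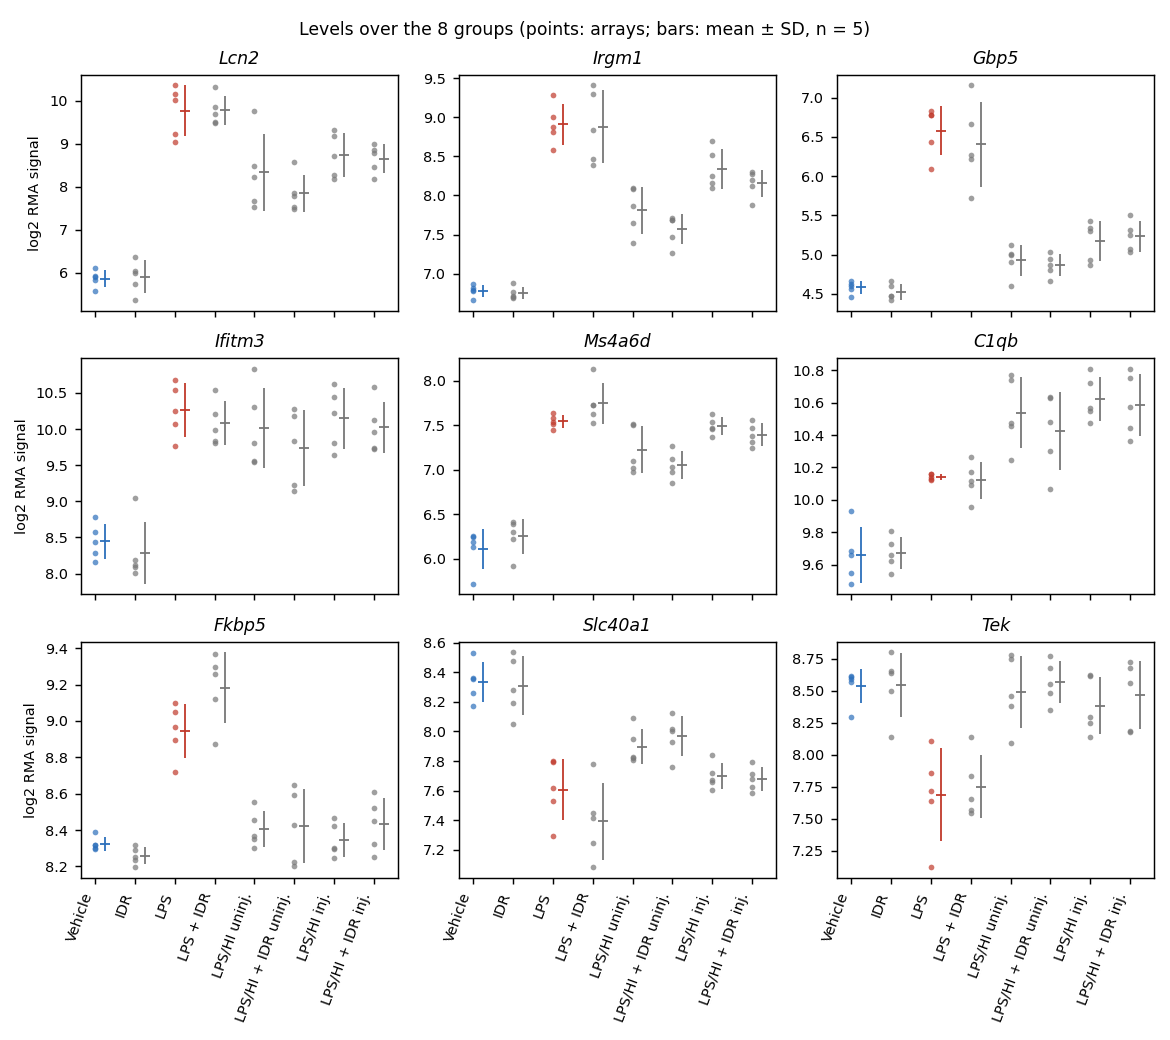
Log2 RMA signal (vertical axes, which differ between panels and do not start at 0) of 9 genes in the 8 groups, with 1 point per array and the mean ± SD of 5 arrays. Vehicle is blue, LPS red and the other groups grey. Lcn2 and Gbp5 are highest in the groups taken 6 h after LPS, while C1qb is highest in the groups that also had hypoxia-ischaemia.

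Levels in the remaining groups, taken 20 h after LPS and 6 h after hypoxia-ischaemia, are given as a description, since time and hypoxia-ischaemia cannot be told apart in them. Gbp5 was at 4.58 ± 0.08 in Vehicle, 6.58 ± 0.32 with LPS at 6 h and 4.92 ± 0.20 in the uninjured hemisphere without peptide (mean ± SD, n = 5), and Fkbp5 at 8.32 ± 0.04, 8.94 ± 0.15 and 8.41 ± 0.10. Tek was at 8.54 ± 0.13, 7.69 ± 0.36 and 8.49 ± 0.28. Each of these 3 genes thus stood nearer to Vehicle in that later group than at 6 h. Lcn2 kept more of its rise, at 5.87 ± 0.20, 9.77 ± 0.59 and 8.34 ± 0.89, and Ifitm3 nearly all, at 8.45 ± 0.24, 10.26 ± 0.37 and 10.01 ± 0.56. C1qb was at 9.66 ± 0.17 in Vehicle, 10.14 ± 0.02 with LPS and 10.54 ± 0.22 in the uninjured hemisphere, the only one of the 6 with its highest level there.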

How the data were processed

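Total RNA of 40 mouse brain samples was hybridised to Affymetrix arrays. The deposited values are log2 signals made by RMA with the affy package, per the submitters' processing notes, with no versions given. RMA corrects background, equalises array distributions and summarises probes, which hides any shift common to a whole array. Array medians ran from 6.99 to 7.13. Of 34760 probe sets, 21640 carried 1 gene symbol in the array annotation, 1321 several and 11799 none. No filter on signal was set.

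Groups of 5 were compared with limma 3.58.1 (lmFit, eBayes) in R 4.3.3, on the 10 arrays of a comparison or the 20 of the interaction, and calls were made at an adjusted p under 0.05 over 19937 genes. The procedure was tested on simulated data. The number of arrays limits the precision. Errors of fold changes are standard errors. Alternatives covered filters, probe set choice, scaling, samples in the fit, covariates, a replicate block and leaving out each array. Named were the 20 highest and 20 lowest called genes without overlap and up to 6 called members a list, passing over clone names, and genes chosen later are marked. The comparison, members and lists were chosen with earlier results of these data known. Promoter sequences are RefSeq's for GRCm38.p6, and 119 of the 146 genes that rose and 13 of the 20 that fell were found there. For a gene with several starts only the most upstream was used.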

Additional observations from a re-analysis of the deposited data

Results flagged for a closer look

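In the genes named above, 1 array of a group of 5 stood apart from the other 4 in 29 of 326 groups examined (8.9%), where chance alone gives about 1 in 20. The criterion was a gap to the nearest array above Dixon's 95% critical value. Vehicle array 5 was the one that stood apart most often, 8 times, and LPS array 1 followed with 7.

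Vehicle array 5 stood apart low in Ms4a6d (5.72, others 6.13 to 6.25), Tek (8.30, others 8.57 to 8.62), Il1a (5.10, others 5.27 to 5.32), Ccnd1 (9.97, others 10.10 to 10.13) and Slc7a11 (10.00, others 10.30 to 10.40). It stood apart high in Serpina3n (9.56, others 8.83 to 9.00), Fgfr3 (9.75, others 9.41 to 9.49) and Mbp (10.31, others 9.84 to 9.94). LPS array 1 stood apart high in Saa3 (7.38, others 6.35 to 6.62), Cxcl11 (8.16, others 6.43 to 6.86), Il4ra (8.51), Tex24 (4.93), Mir19b-1 (4.49) and Ccr2 (4.11), and low in Lyve1 (7.43).

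LPS array 3 was low in Parp14 (6.94, others 7.35 to 7.40) and Tgm2 (7.97). LPS array 4 was high in Tnc (9.22, others 9.03 to 9.05) and Ms4a6c (7.30). LPS array 5 was high in Casp4 (6.16) and low in Agt (10.81) and Myd88 (7.62). In Vehicle, array 2 was high in Ccl12 (5.54, others 4.90 to 5.03). Array 3 was high in Ly96 (7.66) and Scrg1 (10.56) and low in Agt (9.92) and Ccl19 (8.61). Array 4 was low in Parp14 (6.00) and high in Fkbp5 (8.39).

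The effect of LPS on Tex24 differed between pups without and with the peptide by 0.63 ± 0.09 on the log2 scale (standard error, interaction over 20 arrays, adjusted p = 0.0146). Tex24 was at 4.32 ± 0.06 in Vehicle, 4.65 ± 0.16 with LPS, 4.51 ± 0.08 with IDR and 4.21 ± 0.05 with LPS and IDR (mean ± SD, n = 5). It was the only gene of 19937 past the threshold in that test.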

How the results depend on the processing

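The number of genes called in LPS minus Vehicle, 166, lay between 165 and 198 under the 9 alternatives in filter, probe set choice, scaling, samples in the fit, variance model, replicate block and ribosomal covariate, and between 137 and 175 when 1 array was left out. With the Xist level as a covariate it was 86, and with only high-Xist arrays, which leave 2 Vehicle arrays, it was 75. In all 10 fits without 1 array and every alternative that held the gene, 68 risen genes and none of the fallen were called. There were 11 alternatives, or 10 for a gene that the signal filter left out. Counts for LPS with IDR minus IDR lay between 250 and 317, and between 203 and 286 without 1 array. The single interaction call was lost with the signal filter, with repeated quantile normalization and with all 8 groups in the fit (0 calls each), and without 1 array the count ran from 0 to 2. The ribosomal difference lay between 0.014 and 0.089 without 1 array. Deviations from the group means of arrays with the same number correlated at -0.21, 0.15, 0.21, 0.12 and 0.47, and since 1 of the 5 lay below 0 the numbers were not taken as pairs. With the replicate number as a block, 187 genes were called, 159 of them among the 166, and 2 of 5 arrays correlated best with their own number. Among the genes named or called, that fit added calls for 5 (C1qc, Ccl5, Gbp11, Slc16a4 and Slc7a11) and did not make the call for 7, among them Ccnd1, Hif3a, Slc39a12 and Tsc22d3. No named gene changed sign with a call. Precision is limited by 5 arrays a group: the median 95% half-width was 0.16.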
